A study of Mus musculus with 24 samples.

Results

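Collagens and laminins, the proteins that form the fibres and sheets of the extracellular matrix, were followed through 24 libraries of mouse brain RNA. The members were chosen by name, as every gene whose symbol is that of a collagen chain or a laminin chain and whose counts summed to at least 240 over the 24 libraries, which gave 53 of the 22274 genes in the deposited table. They were 10 fibrillar collagens, 6 basement membrane collagens (the chains of type IV), 26 other collagens and 11 laminins. A further pair of names matched and stayed under the minimum, Col24a1 with 108 summed counts and Col10a1 with 163, whereas Col6a4 with 262 and Col9a1 with 305 lay just inside it. The libraries fell into 8 groups of 3 and were made from total RNA of tissue kept in liquid nitrogen, and the study's animals were male C57BL/6J mice. Hypothalamic tissue that held the supraoptic and paraventricular nuclei was taken from sham-operated mice labelled day 0 (Sham), from mice at day 3 and day 10 after an electrical lesion of the pituitary stalk (PEL_3d and PEL_10d), and from the same 3 kinds of mice given growth hormone (Sham_GH, PEL_3d_GH and PEL_10d_GH). The hippocampus was taken from sham-operated mice labelled day 0 (HIP_Sham) and from mice at day 10 after the lesion (HIP_PEL_10d), with no growth hormone. The lesion was made with a 3D-printed knife and cathodic current. The dose and schedule of growth hormone are not given in the sources used here. No label says whether a library is 1 animal or a pool, so the tests below measure the spread between libraries.

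A collagen is built of chains that wind around each other in a triple helix, and glycine recurs along each chain with 2 residues between, which lets the chains pack. Fibrillar collagens (types I, II, III, V, XI, XXIV and XXVII) assemble into long fibres, type IV chains join end to end into the net of the basement membrane, and laminins are cross-shaped trimers of an alpha, a beta and a gamma chain that form the other net of that membrane and bind cells through integrins and dystroglycan. In the healthy brain most of this matrix lies in the walls of vessels and in the meninges, and fibrillar collagen is sparse between neurons. After an injury that opens the tissue, a scar rich in collagen with a new basement membrane at its border is a known feature of the central nervous system.

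The letters of the messages show how the classes differ, and a stretch of 24 codons from a fibrillar chain and from a type IV chain is printed for that reason, 5′ to 3′ on the coding strand, with the glycine codons of the repeat in capitals (GGN, with 2 codons between). They were read from the GENCODE M21 transcripts of GRCm38. Col3a1 lies on chromosome 1 from 45311538 to 45349706 on the plus strand and Col4a1 on chromosome 8 from 11198423 to 11312826 on the minus strand.
Col3a1 codons 164 to 187: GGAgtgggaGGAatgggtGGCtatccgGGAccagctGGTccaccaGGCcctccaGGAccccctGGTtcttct
Col4a1 codons 148 to 171: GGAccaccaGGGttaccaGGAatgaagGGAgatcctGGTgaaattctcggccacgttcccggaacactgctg
In Col3a1 these codons open a run of 344 triplets without a break, the longest among the 53 members, whereas the printed Col4a1 repeat stops after 5 triplets. The Col4a1 stretch was chosen to show a break after a run of that length, and its longest run was 40 triplets. The longest unbroken run per gene was 217 to 344 triplets in the 10 fibrillar collagens, 39 to 66 in the 6 type IV chains and 23 to 113 in the 26 other collagens. In the 11 laminins, which are not collagens and served as the contrast, it was 2 to 3.

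The 6 type IV genes lie in 3 head-to-head pairs, which are transcribed away from each other. The annotated starts of Col4a1 and Col4a2 are 21 bases apart on chromosome 8, those of Col4a3 and Col4a4 72 bases apart on chromosome 1, and those of Col4a5 and Col4a6 1309 bases apart on the X chromosome. The promoter windows of the first pair are printed because these 2 genes were the most abundant type IV chains and were both called in each of the 6 comparisons among sham, day 3 and day 10 in the hypothalamus. The windows come from RefSeq on GRCm38.p6, run from 250 bases before the start to 50 after it, and were found for 38 of the 53 members. Col4a1 covers chr8:11312777-11313076 on the minus strand and Col4a2 chr8:11312555-11312854 on the plus strand, so that they share 78 bases. Capitals mark 3 common promoter motifs on either strand. They are the CCAAT box, the Sp1 type GC box with the letters GGGCGG, and the TATA box with the letters TATAAA, and no marked motifs overlap.
Col4a1 promoter: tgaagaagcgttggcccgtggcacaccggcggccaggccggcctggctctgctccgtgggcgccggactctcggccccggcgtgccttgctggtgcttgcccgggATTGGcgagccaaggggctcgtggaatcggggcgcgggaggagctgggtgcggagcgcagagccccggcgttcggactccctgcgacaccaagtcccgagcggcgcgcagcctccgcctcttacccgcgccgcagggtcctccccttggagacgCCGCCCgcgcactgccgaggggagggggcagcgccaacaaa
Col4a2 promoter: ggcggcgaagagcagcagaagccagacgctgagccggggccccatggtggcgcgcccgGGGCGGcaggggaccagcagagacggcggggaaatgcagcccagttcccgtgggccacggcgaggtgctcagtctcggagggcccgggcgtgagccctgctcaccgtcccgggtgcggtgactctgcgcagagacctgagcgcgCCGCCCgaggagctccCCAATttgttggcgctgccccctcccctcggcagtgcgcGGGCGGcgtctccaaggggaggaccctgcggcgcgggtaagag
The Col4a1 window held 1 CCAAT box and 1 GC box and the Col4a2 window 1 CCAAT box and 3 GC boxes, and no TATA box was found in either. Over all 32851 windows of the table, 37.4% held the CCAAT box, 35.7% the GC box and 13.6% the TATA box, so that a match is common and describes only the letters.

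Total counts ranged from 15095267 to 17973494 per library (median 15883700), and the members together took between 0.043% and 0.319% of them. The library labelled Sham 1 went against its label, with 0.453 FPKM (fragments per kilobase of transcript, scaled by library depth) of the hypothalamic hormone gene Avp and 92.2 FPKM of the hippocampal gene Neurod6, where the 17 other hypothalamic libraries held 11.5 to 223 FPKM of Avp and at most 1.4 FPKM of Neurod6. The library labelled HIP_Sham 1 did the reverse, with 139 FPKM of Avp and 0.4 FPKM of Neurod6. The study left out 1 Sham library as an outlier, and which one was not settled here. For the tests below the library labelled Sham 1 was left out and put back as an alternative, whereas the library labelled HIP_Sham 1 was kept in the main tests and left out as an alternative. Another library, HIP_Sham 3, is labelled hypothalamus in its tissue field. It was grouped by its title and carried hippocampal markers. Each comparison was fitted in edgeR (quasi-likelihood) over every gene past a filter on low counts. A gene was called higher or lower at a Benjamini-Hochberg adjusted p-value under 0.05, and SE is the standard error of a log2 fold change.

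After the lesion the summed levels of the 4 classes in the hypothalamus moved apart from Sham to different degrees (these sums were not tested). The summed level of the fibrillar collagens was 30.2 and 30.8 FPKM in Sham 2 and Sham 3, 136, 73.9 and 166 FPKM in the PEL_3d libraries, and 146, 61.2 and 92.7 FPKM in the PEL_10d libraries. The type IV chains stood at 23.2 and 17.0 FPKM in the same Sham libraries. They reached 86.1, 39.6 and 81.1 FPKM at day 3 and at 46.0, 32.9 and 41.9 FPKM at day 10. The laminins were closer together, with 35.1 and 37.2 FPKM in Sham 2 and Sham 3, 59.7, 39.7 and 55.5 FPKM at day 3, and 60.4, 44.5 and 60.4 FPKM at day 10. No lesioned library of these 3 classes overlapped the pair of Sham libraries, and PEL_3d 2 was the lowest of its group in each. The other collagens overlapped at day 3, with 78.3 and 84.1 FPKM in Sham 2 and Sham 3 and 76.6 FPKM in PEL_3d 2. In these bulk samples more cells of a type and more RNA per cell cannot be told apart.

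**Figure D1:**
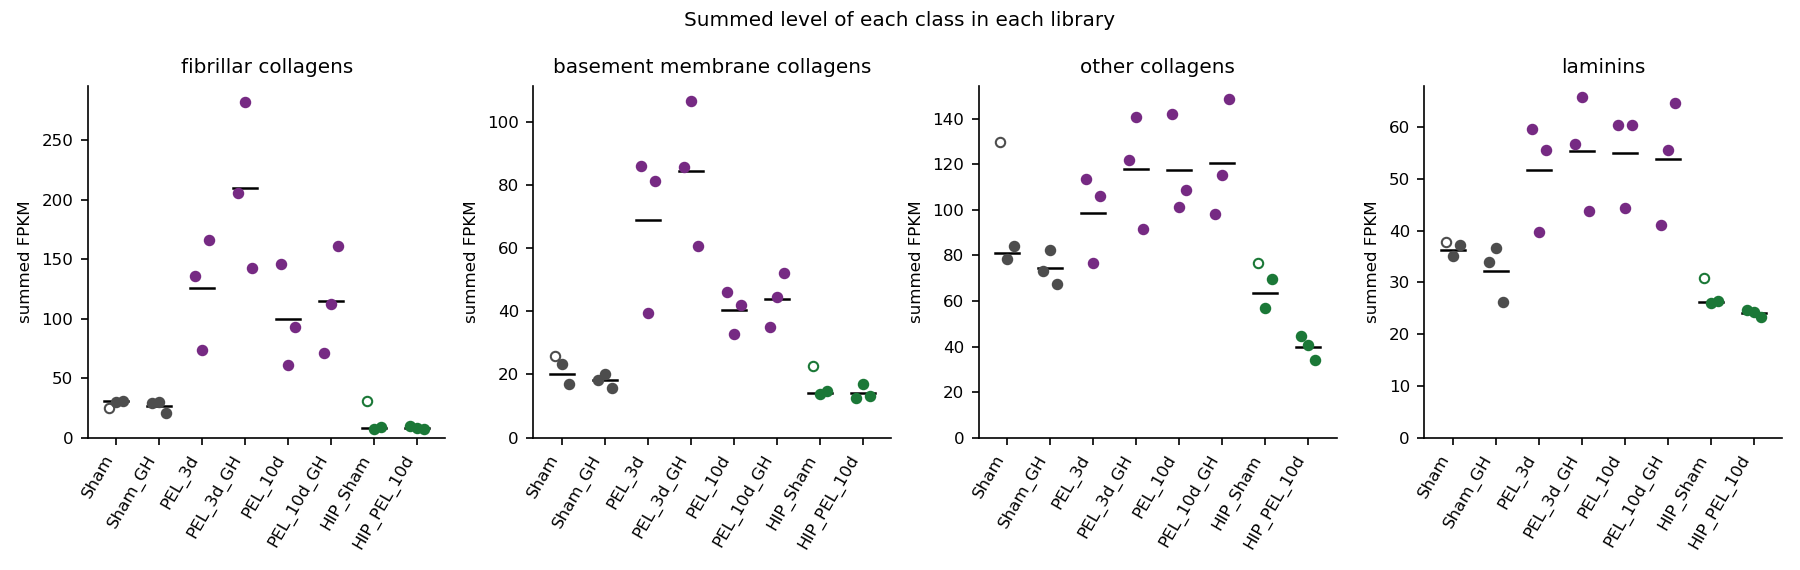
Summed FPKM of the 10 fibrillar, 6 basement membrane and 26 other collagens and the 11 laminins in each library, by group; filled points are libraries, open points the libraries labelled Sham 1 and HIP_Sham 1, and black lines the group means without these. The fibrillar sum reached 282 FPKM in PEL_3d_GH 2 and stayed at 7.26 to 9.43 FPKM in the HIP_PEL_10d libraries.

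At day 3, 27 of the 51 members tested were higher and 3 lower in PEL_3d than in Sham, against 22.2% higher and 18.2% lower of all genes tested. The share of all genes called in either direction was 40.5%. At day 10, 24 of 51 were higher and 0 lower in PEL_10d than in Sham, against 7.97% and 1.43% of all genes (9.4% in either direction). At an unadjusted p-value under 0.05 edgeR counted 35 higher and 1 lower, and DESeq2 called 30 higher and 0 lower. The shares of all genes at these settings are not given here. The median log2 fold change of the tested members was 0.82 at day 3 and 0.85 at day 10, beside -0.01 over all genes tested in each. Both comparisons used the libraries Sham 2 and Sham 3, so that they are not independent. The lesion was compared a second time in mice given growth hormone, with libraries of its own, and there 32 of 51 members were higher and 2 lower in PEL_3d_GH than in Sham_GH (26.9% and 25.2% of all genes), and 35 of 52 higher and 2 lower in PEL_10d_GH than in Sham_GH (17.7% and 13.3%). Counted by overlap of the libraries alone, in counts scaled by depth, 28 members lay wholly above Sham and 3 wholly below it at day 3 (31.6% and 31.1% of all genes), and 37 above and 1 below at day 10 (22.3% and 22.2%). With growth hormone these counts were 33 and 2 at day 3 (30.9% and 30.2%) and 34 and 3 at day 10 (23.6% and 22.5%). Of the 27 members higher at day 3, 25 were also higher in the growth hormone arm, which is 92.6% of the first list and 78.1% of the second (88.2% and 73.6% over all genes called higher), and all 24 members higher at day 10 were among the 35 of the growth hormone arm, 68.6% of that list (93.3% and 42.4% over all genes). The day 10 count without growth hormone changed with the libraries used. It was smaller without Sham 2 or without Sham 3, fits that each left a lone Sham library. With the library labelled Sham 1 put back it was 3 (Col3a1, Col4a2 and Col4a6), and in that last fit the 1.81% of all genes called higher was also smaller. With Sham 1 put back, 16 members were higher and 0 lower at day 3, against 10.4% and 1.04% of all genes.

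**Figure D2:**
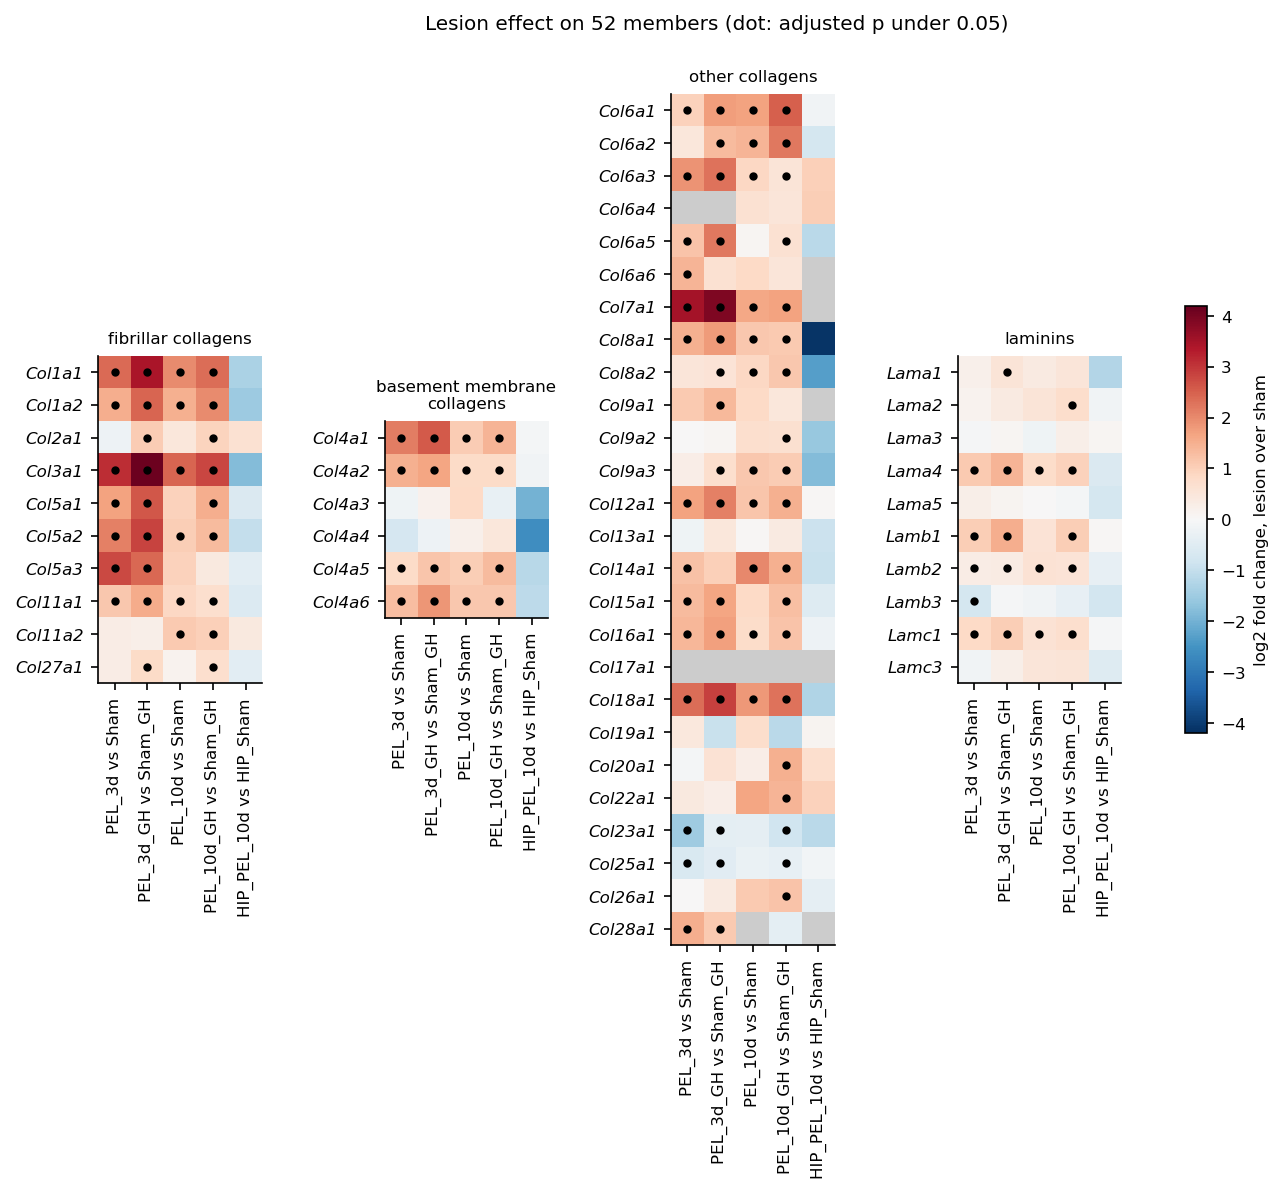
Log2 fold change of lesion over sham for 52 of the 53 members (colour, red higher and blue lower) in the 4 hypothalamic comparisons and the hippocampal one; a dot marks an adjusted p-value under 0.05 in edgeR, and grey means that the gene did not pass the filter on low counts. Col3a1 reached 4.11 in PEL_3d_GH against Sham_GH, and no cell of the hippocampal column has a dot. The hippocampal fit kept the library labelled HIP_Sham 1, without which some members were called lower.

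Among the fibrillar collagens, 7 of 10 were higher at day 3 and 6 of 10 at day 10, and 9 of 10 at each time in the growth hormone arm, with none lower. Of all genes tested, 22.2% and 7.97% were higher at these days, and 26.9% and 17.7% with growth hormone. Col3a1, the chain of type III collagen, which is the first fibrous collagen of many healing tissues, measured 5.76 FPKM in both Sham 2 and Sham 3. It measured 48.2, 28.6 and 59.6 FPKM in the PEL_3d libraries and 52.6, 16.4 and 30.6 FPKM in the PEL_10d libraries. With growth hormone it measured 4.28, 4.79 and 3.70 FPKM in Sham_GH. The lesioned libraries held 81.3, 105 and 53.6 FPKM in PEL_3d_GH and 21.1, 34.9 and 53.2 FPKM in PEL_10d_GH. All 12 lesioned libraries lay above all 5 of these sham libraries, and the highest was PEL_3d_GH 2. Its log2 fold change was 3.11 (SE 0.32, adjusted p = 3.49e-05, edgeR) at day 3 and 2.44 (SE 0.35, adjusted p = 0.00409, edgeR) at day 10, and 4.11 (SE 0.31, adjusted p = 4.33e-06, edgeR) and 2.80 (SE 0.32, adjusted p = 0.000195, edgeR) in the growth hormone arm.

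Type I collagen, the main fibre of skin, bone and scars, has chains encoded by Col1a1 and Col1a2. Col1a2 measured 11.99 and 12.8 FPKM in Sham 2 and Sham 3. The lesioned libraries held 40.6, 20.04 and 47.9 FPKM in PEL_3d and 49.6, 24.2 and 33.6 FPKM in PEL_10d. With growth hormone it measured 12.6, 12.8 and 7.32 FPKM in Sham_GH. The lesioned libraries held 57.9, 84.3 and 40.6 FPKM in PEL_3d_GH and 25.5, 44.3 and 62.4 FPKM in PEL_10d_GH. Again no lesioned library overlapped the sham libraries, while the libraries within a lesioned group differed among themselves by more than 2 times. Col1a1 measured 4.03 and 3.69 FPKM in the same Sham libraries, 22.1, 10.3 and 28.3 FPKM in PEL_3d and 25.0, 8.65 and 12.7 FPKM in PEL_10d. It measured 4.08, 4.26 and 2.22 FPKM in Sham_GH. The lesioned libraries held 35.9, 53.4 and 27.5 FPKM in PEL_3d_GH and 11.2, 17.2 and 26.3 FPKM in PEL_10d_GH. PEL_3d 2 and PEL_10d 2 were the lowest lesioned libraries for both chains in the arm without growth hormone. At day 3 the log2 fold change was 2.37 for Col1a1 (SE 0.34, adjusted p = 0.000386, edgeR) and 1.54 for Col1a2 (SE 0.29, adjusted p = 0.00181, edgeR), and at day 10 it was 1.98 (SE 0.39, adjusted p = 0.0158, edgeR) and 1.5 (SE 0.25, adjusted p = 0.00805, edgeR).

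Type V collagen, which sits inside type I fibres and limits their width, has chains from Col5a1, Col5a2 and Col5a3, and Col5a2 lies 24614 bases from Col3a1 on chromosome 1. At day 3 the log2 fold changes were 1.69, 2.12 and 2.77, and all 3 genes were called. Col5a3 measured 0.487 and 0.335 FPKM in Sham 2 and Sham 3. The lesioned libraries held 3.14, 1.82 and 3.60 FPKM in PEL_3d and 1.08, 0.726 and 0.679 FPKM in PEL_10d. In Sham_GH it measured 0.470, 0.515 and 0.517 FPKM, in PEL_3d_GH 2.86, 3.63 and 1.70 FPKM, and in PEL_10d_GH 0.665, 0.506 and 0.832 FPKM. The day 3 libraries of both arms thus stood above every sham and every day 10 library, and PEL_10d_GH overlapped Sham_GH. At day 10 the log2 fold change of Col5a3 was 0.98 (SE 0.29, adjusted p = 0.0756, edgeR), which did not pass the threshold, and 0.39 with growth hormone (SE 0.22, adjusted p = 0.2, edgeR). Col11a1, a chain of the type XI fibre of cartilage, was called in all 4 comparisons (log2 fold changes 1.12, 0.88, 1.57 and 0.71 in the order day 3, day 10, and the same with growth hormone). Its partner Col11a2 was called only at day 10, where it measured 3.66, 3.33 and 4.11 FPKM in PEL_10d against 1.52 and 1.81 FPKM in Sham 2 and Sham 3, and 3.801, 5.13 and 4.198 FPKM in PEL_10d_GH against 2.44, 1.97 and 2.18 FPKM in Sham_GH. Col2a1, the cartilage fibre, and Col27a1 were called higher in both growth hormone comparisons and in neither without growth hormone, and the difference between the arms was not past the threshold for either (log2 differences of 1.28 and 0.48 at day 3, adjusted p = 0.305 and 0.655 in edgeR's interaction test).

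**Figure D3:**
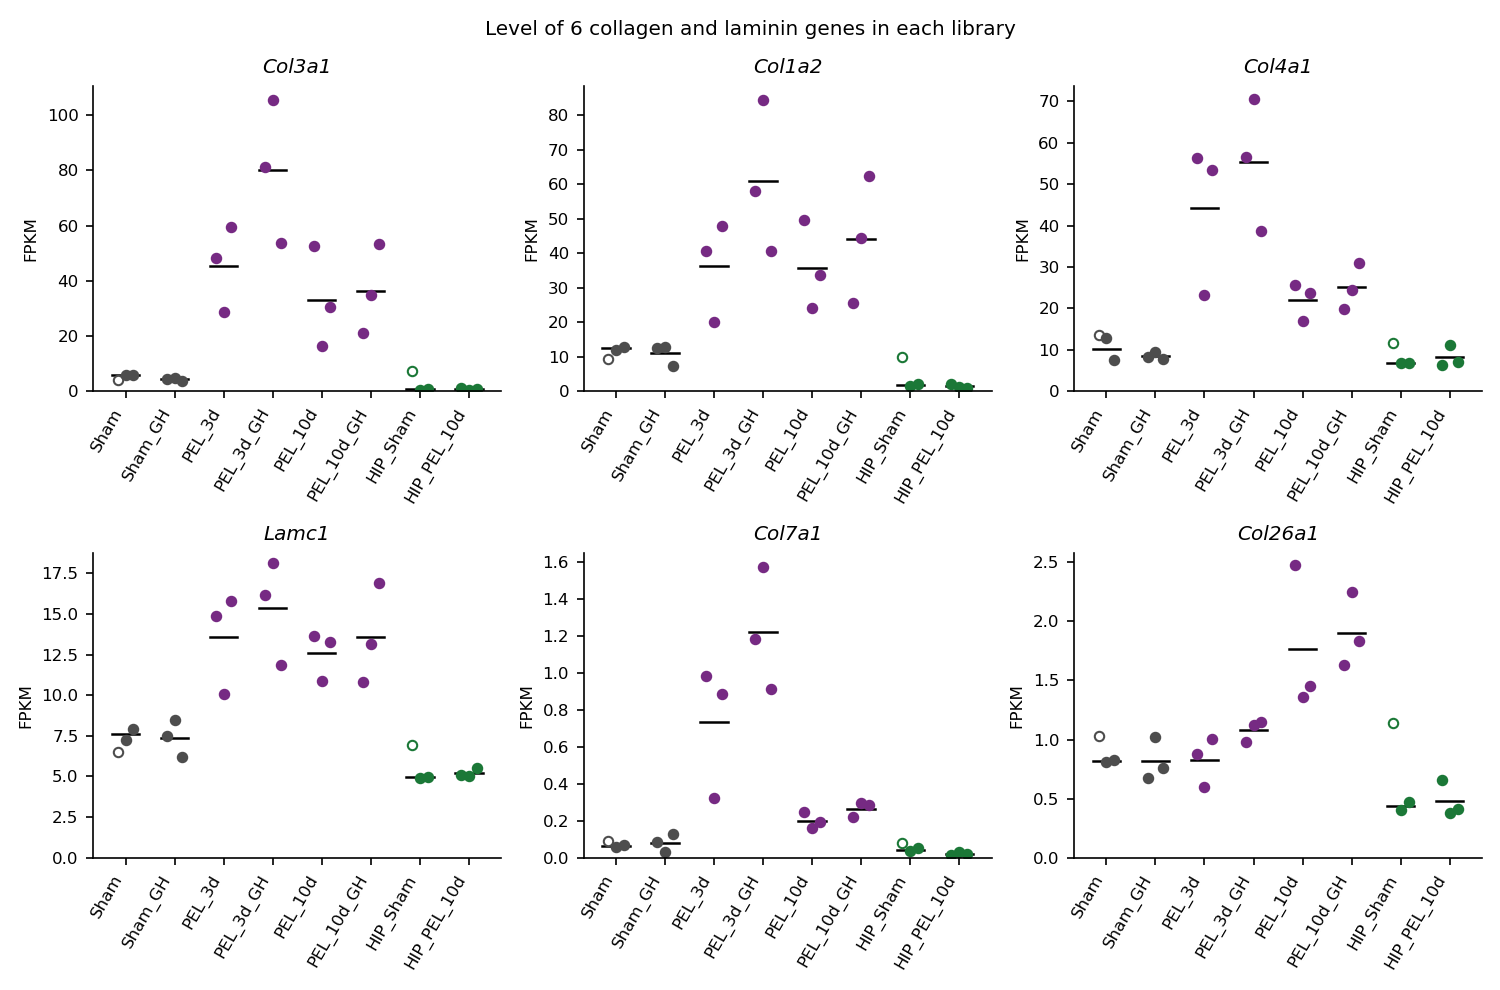
FPKM of Col3a1, Col1a2, Col4a1, Lamc1, Col7a1 and Col26a1 in each library, by group; filled points are libraries, open points the libraries labelled Sham 1 and HIP_Sham 1, and black lines the group means without these. Col7a1 was highest in the day 3 groups and Col26a1 in the day 10 groups, and the HIP_PEL_10d libraries reached at most 11.2 FPKM in any of the 6 genes (Col4a1).

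Of the type IV chains, 4 of 6 were called higher in each of the 4 lesion comparisons, namely Col4a1, Col4a2, Col4a5 and Col4a6, and Col4a3 and Col4a4 in none. The shares of all genes called higher were 22.2% at day 3 and 7.97% at day 10, and 26.9% and 17.7% with growth hormone. Col4a1 measured 12.9 and 7.54 FPKM in Sham 2 and Sham 3, 56.4, 23.2 and 53.5 FPKM in PEL_3d and 25.6, 17.0 and 23.8 FPKM in PEL_10d. With growth hormone it measured 8.24, 9.44 and 7.76 FPKM in Sham_GH, 56.6, 70.5 and 38.6 FPKM in PEL_3d_GH and 19.9, 24.4 and 30.9 FPKM in PEL_10d_GH. The sham libraries were the lowest throughout and the day 3 libraries mostly the highest, with PEL_3d 2 among the day 10 values. FPKM and counts of Col4a1 did not keep 1 ratio, and Sham 2 was the higher of the pair in FPKM and the lower in counts, on which the tests were run. Its log2 fold change was 2.15 at day 3 (SE 0.28, adjusted p = 0.000179, edgeR) and 1.07 at day 10 (SE 0.14, adjusted p = 0.0029, edgeR).

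Col4a2, the other gene at the printed promoter and the partner of Col4a1 in the common type IV trimer, measured 6.58 and 6.32 FPKM in Sham 2 and Sham 3, 22.6, 11.8 and 21.4 FPKM in PEL_3d and 12.6, 10.4 and 11.5 FPKM in PEL_10d. It measured 7.08, 7.35 and 5.75 FPKM in Sham_GH, 21.2, 26.7 and 17.0 FPKM in PEL_3d_GH and 10.2, 11.6 and 14.0 FPKM in PEL_10d_GH. As in Col4a1, the mean was highest at day 3 and lowest in sham in each arm. Without growth hormone the log2 fold changes of Col4a2 were smaller than those of Col4a1. They were 1.51 at day 3 (SE 0.23, adjusted p = 0.000477, edgeR) and 0.81 at day 10 (SE 0.09, adjusted p = 0.00164, edgeR). The annotated 5′ ends of the 2 transcripts overlap on opposite strands and the sources used here do not say whether counting used strand. Col4a5 and Col4a6, the pair on the X chromosome, had log2 fold changes of 0.80 and 1.29 at day 3 and of 1.04 and 1.12 at day 10. Col4a5 measured 2.36 and 2.09 FPKM in Sham 2 and Sham 3, 4.62, 2.92 and 3.76 FPKM in PEL_3d and 5.40, 3.75 and 4.16 FPKM in PEL_10d, so that the groups of each day overlapped each other and neither overlapped Sham. Col4a3 and Col4a4, which with Col4a5 form the type IV trimer of the kidney glomerulus, measured at most 0.312 and 0.263 FPKM in the 17 hypothalamic libraries other than the one labelled Sham 1.

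Of the laminins, 4 of 11 were higher and 1 lower at day 3, and 3 of 11 higher at day 10, with 5 of 11 higher at each time in the growth hormone arm. The share of all genes called higher was 22.2% at day 3 and 7.97% at day 10, and 26.9% and 17.7% with growth hormone, and 18.2% were lower at day 3. Lama4, Lamb2 and Lamc1 were called higher in all 4 comparisons, Lama4 being the alpha chain of vessel walls, Lamb2 a beta chain of mature vessels and synapses, and Lamc1 the gamma chain of most laminin trimers. Lamc1 measured 7.25 and 7.93 FPKM in Sham 2 and Sham 3, 14.9, 10.1 and 15.8 FPKM in PEL_3d and 13.6, 10.9 and 13.3 FPKM in PEL_10d. In mice given growth hormone it measured 7.50, 8.46 and 6.19 FPKM in Sham_GH, 16.2, 18.1 and 11.9 FPKM in PEL_3d_GH and 10.8, 13.1 and 16.9 FPKM in PEL_10d_GH. The lesioned libraries of both days covered the same range and lay above every sham library. The log2 fold change of Lamc1 was 0.82 at day 3 (SE 0.16, adjusted p = 0.00212, edgeR) and 0.62 at day 10 (SE 0.12, adjusted p = 0.0138, edgeR), and it was called under all 11 alternatives at day 3.

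Lamb2, the most abundant laminin per length, measured 10.0 and 10.8 FPKM in Sham 2 and Sham 3, 15.9, 11.8 and 12.9 FPKM in PEL_3d and 18.4, 12.9 and 22.5 FPKM in PEL_10d. With growth hormone it measured 11.2, 10.6 and 7.81 FPKM in Sham_GH, 14.5, 17.0 and 10.8 FPKM in PEL_3d_GH, and 11.8, 15.8 and 20.1 FPKM in PEL_10d_GH. The lowest lesioned libraries were close to the sham libraries, and PEL_3d_GH 3 lay within Sham_GH. The log2 fold change of Lamb2 was 0.32 at day 3 (SE 0.10, adjusted p = 0.0304, edgeR) and 0.62 at day 10 (SE 0.13, adjusted p = 0.0191, edgeR). Lama4 had log2 fold changes of 1.10 and 0.78 at the same times, and Lamb1, the beta chain of most developing basement membranes, of 1.04 at day 3 and of 0.57 at day 10, where it did not pass the threshold (adjusted p = 0.0711, edgeR). With the library labelled Sham 1 put back these values of Lamb1 were 0.14 and -0.35, and neither passed the threshold. Lamb3, a chain of the laminin under epithelia, was the laminin called lower, with 1.97 and 1.82 FPKM in Sham 2 and Sham 3 and 1.36, 0.878 and 1.23 FPKM in PEL_3d (log2 fold change -0.73, SE 0.20, adjusted p = 0.0154, edgeR, and -0.19 and not called with Sham 1 put back). Lamb3 in the growth hormone arm measured 1.90, 1.59 and 1.58 FPKM in Sham_GH and 1.61, 1.06 and 2.27 FPKM in PEL_3d_GH, which overlapped. Lama3, Lama5 and Lamc3 were called in no lesion comparison of the hypothalamus, Lama1 in 1 (0.54 at day 3 with growth hormone) and Lama2, the alpha chain of muscle and of the glial border, in 1 (0.75 at day 10 with growth hormone).

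Of the other collagens, 12 of 24 tested were higher and 2 lower at day 3, and 11 of 24 were higher at day 10. With growth hormone 14 of 24 were higher and 2 lower at day 3, and 17 of 25 higher and 2 lower at day 10. Over all genes 22.2% were higher and 18.2% lower at day 3, and 7.97% and 1.43% at day 10. With growth hormone these were 26.9% and 25.2% at day 3 and 17.7% and 13.3% at day 10, so that the shares of members lower were below those of all genes. Col17a1, a transmembrane collagen of epithelia, passed the filter in none of these, with at most 0.139 FPKM in the 17 hypothalamic libraries other than the one labelled Sham 1. Type VI collagen, which forms beaded microfibrils around cells, has its core chains in Col6a1, Col6a2 and Col6a3. Col6a1 measured 4.30 and 4.60 FPKM in Sham 2 and Sham 3, 10.4, 6.33 and 9.88 FPKM in PEL_3d and 17.96, 9.86 and 16.3 FPKM in PEL_10d. Its levels with growth hormone were 2.95, 4.08 and 1.84 FPKM in Sham_GH, 9.93, 14.4 and 6.06 FPKM in PEL_3d_GH and 10.4, 15.1 and 25.5 FPKM in PEL_10d_GH. Lesioned libraries stood above sham libraries in both arms, and the highest was PEL_10d_GH 3. The log2 fold change of Col6a1 was 0.97 at day 3 (SE 0.18, adjusted p = 0.00202, edgeR) and 1.70 at day 10 (SE 0.23, adjusted p = 0.00329, edgeR), and 2.50 at day 10 with growth hormone (SE 0.33, adjusted p = 0.000457, edgeR).

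Col6a2 measured 4.55 and 5.98 FPKM in Sham 2 and Sham 3, 8.02, 5.45 and 8.72 FPKM in PEL_3d, and 17.7, 10.8 and 14.8 FPKM in PEL_10d. The levels of Col6a2 with growth hormone were 3.58, 4.17 and 2.48 FPKM in Sham_GH, 9.14, 11.5 and 6.04 FPKM in PEL_3d_GH and 9.97, 14.7 and 24.6 FPKM in PEL_10d_GH. PEL_3d overlapped Sham and PEL_10d did not, and Col6a2 was higher in PEL_10d than in PEL_3d (log2 fold change 0.96, SE 0.20, adjusted p = 0.0104, edgeR). Col6a3, the remaining core chain, measured 0.806 and 0.790 FPKM in Sham 2 and Sham 3, 3.32, 2.28 and 5.08 FPKM in PEL_3d and 3.13, 1.34 and 1.25 FPKM in PEL_10d. It measured 0.772, 1.17 and 0.655 FPKM in Sham_GH, 4.54, 10.7 and 2.28 FPKM in PEL_3d_GH, and 1.002, 1.17 and 1.45 FPKM in PEL_10d_GH. The order of the days was thus opposite in Col6a2 and Col6a3, and Col6a3 was lower in PEL_10d than in PEL_3d (log2 fold change -1.01, SE 0.25, adjusted p = 0.022, edgeR). Its difference from Sham at day 10 was 0.87 (SE 0.22, adjusted p = 0.0412, edgeR) and -0.07 with the library labelled Sham 1 put back.

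Col7a1, which encodes the anchoring fibril between a basement membrane and the tissue beneath, had the largest log2 fold change among the members called at day 3. It measured 0.058 and 0.070 FPKM in Sham 2 and Sham 3, 0.987, 0.326 and 0.888 FPKM in PEL_3d and 0.248, 0.163 and 0.191 FPKM in PEL_10d. With growth hormone the levels were 0.083, 0.031 and 0.127 FPKM in Sham_GH, 1.19, 1.58 and 0.914 FPKM in PEL_3d_GH and 0.218, 0.295 and 0.283 FPKM in PEL_10d_GH. The 3 stages did not overlap in either arm, although the level stayed low throughout. The log2 fold change of Col7a1 was 3.50 at day 3 (SE 0.53, adjusted p = 0.000518, edgeR) and 1.62 at day 10 (SE 0.40, adjusted p = 0.0397, edgeR). Col18a1, a heparan sulphate collagen of vascular basement membranes from which endostatin is cut, measured 2.33 and 2.24 FPKM in Sham 2 and Sham 3, 12.6, 6.04 and 13.8 FPKM in PEL_3d and 10.2, 5.01 and 7.39 FPKM in PEL_10d, with log2 fold changes of 2.33 and 1.82. With the library labelled Sham 1 put back they were 1.72 and 1.198 and did not pass the threshold. Col15a1, its close relative, had a log2 fold change of 1.33 at day 3 and was not called at day 10 (0.85, adjusted p = 0.0605, edgeR). Col8a1, a short-chain network collagen of vessels, was called in all 4 comparisons (log2 fold changes 1.48, 1.12, 1.78 and 1.11), and its partner Col8a2 in 3 of them. The library labelled Sham 1 held 17.4 FPKM of Col8a1 and 22.1 FPKM of Col8a2, above every other hypothalamic library, and with it put back the differences of both from Sham were negative at both days and did not pass the threshold.

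Among the collagens that attach to fibres, Col12a1 and Col16a1 were called in all 4 comparisons, with log2 fold changes of 1.70 and 1.38 at day 3 and of 1.16 and 0.76 at day 10. Col14a1 measured 0.467 and 0.393 FPKM in Sham 2 and Sham 3, 1.10, 0.726 and 1.42 FPKM in PEL_3d and 2.71, 0.953 and 2.09 FPKM in PEL_10d. In the growth hormone arm it measured 0.807, 0.748 and 0.351 FPKM in Sham_GH, 1.47, 1.87 and 0.603 FPKM in PEL_3d_GH and 1.13, 1.51 and 3.50 FPKM in PEL_10d_GH. PEL_3d_GH 3 lay within Sham_GH, and the other comparisons did not overlap. The log2 fold change of Col14a1 was 2.03 at day 10 (SE 0.44, adjusted p = 0.023, edgeR), and 0.84 with the library labelled Sham 1 put back (adjusted p = 0.772, edgeR). Col9a2 and Col9a3, chains of the type IX collagen of cartilage, were not called at day 3 without growth hormone (log2 fold changes 0.02 and 0.28). At day 10 Col9a3 measured 6.68, 5.25 and 4.82 FPKM in PEL_10d against 2.26 and 2.75 FPKM in Sham 2 and Sham 3 (log2 fold change 1.13, SE 0.18, adjusted p = 0.00601, edgeR). The library labelled Sham 1 held 43.7 FPKM of Col9a3, and the day 10 difference turned negative with it put back.

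The collagens called lower were transmembrane chains. Col25a1, which is made by neurons and is found in amyloid plaques, was the most abundant member per length among the other collagens. It measured 34.2 and 36.8 FPKM in Sham 2 and Sham 3, 28.8, 21.6 and 22.7 FPKM in PEL_3d and 33.2, 30.9 and 26.6 FPKM in PEL_10d. With growth hormone it measured 31.1, 36.9 and 34.2 FPKM in Sham_GH, 24.7, 23.0 and 25.3 FPKM in PEL_3d_GH and 29.1, 24.8 and 25.6 FPKM in PEL_10d_GH. No lesioned library exceeded the lowest library of its own sham group. Its log2 fold change was -0.63 at day 3 (SE 0.10, adjusted p = 0.000665, edgeR; -0.36 and not called with Sham 1 put back) and -0.47 at day 3 with growth hormone (SE 0.07, adjusted p = 0.00048, edgeR). At day 10 it was -0.28 (adjusted p = 0.112, edgeR), which did not pass the threshold, and -0.34 with growth hormone (SE 0.07, adjusted p = 0.00427, edgeR).

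Col23a1 measured 12.8 and 9.81 FPKM in Sham 2 and Sham 3, 6.07, 2.76 and 3.39 FPKM in PEL_3d and 12.9, 9.88 and 3.25 FPKM in PEL_10d. In the growth hormone arm it measured 10.4, 10.3 and 8.99 FPKM in Sham_GH, 8.47, 8.16 and 6.23 FPKM in PEL_3d_GH, and 6.19, 4.44 and 6.09 FPKM in PEL_10d_GH. The day 3 libraries lay below the sham libraries in both arms, whereas PEL_10d spread from below the sham libraries (PEL_10d 3) to just above both (PEL_10d 1). The log2 fold change of Col23a1 was -1.49 at day 3 (SE 0.24, adjusted p = 0.000654, edgeR), and -1.08 and not called with the library labelled Sham 1 put back. With growth hormone it was -0.41 (SE 0.12, adjusted p = 0.0141, edgeR). The difference of 1.08 between the arms, with Sham 1 left out, was not past the threshold (adjusted p = 0.22, edgeR's interaction test). Col13a1, another transmembrane chain, was called in no lesion comparison.

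Between the days, 6 of 51 members were higher and 8 lower in PEL_10d than in PEL_3d, against 6.33% higher and 12.2% lower of all genes. In the growth hormone arm, whose libraries are separate, 3 of 51 were higher and 10 lower in PEL_10d_GH than in PEL_3d_GH, against 4.81% and 10.8%. By overlap alone, 10 members lay wholly above and 6 wholly below day 3 without growth hormone (17.5% and 20.2% of all genes), and 5 and 12 with it (16.1% and 21%). The share of members called higher or lower was near or moderately above that of all genes. By overlap, the share wholly below without growth hormone and the share wholly above with it were under those of all genes. The other shares by overlap were near them. The 7 members lower at day 10 in both arms were Col4a1, Col4a2, Col5a2, Col5a3, Col6a3, Col6a5 and Col7a1, which is 87.5% of the first list and 70% of the second (69.3% and 78.0% over all genes called lower). Col7a1 fell by 1.87 on the log2 scale (SE 0.40, adjusted p = 0.0115, edgeR) and by 2.21 with growth hormone (SE 0.23, adjusted p = 0.000865, edgeR), and Col5a3 fell by 1.78 (SE 0.27, adjusted p = 0.00199, edgeR) and by 2.03 (SE 0.29, adjusted p = 0.00283, edgeR). Col6a5, a large type VI chain with counts that were not whole in some libraries, measured 1.73, 1.89 and 1.71 FPKM in PEL_3d and 0.811, 0.629 and 1.04 FPKM in PEL_10d. In the growth hormone arm Col6a5 measured 4.88, 3.32 and 1.75 FPKM at day 3 and 1.002, 1.197 and 1.15 FPKM at day 10, again without overlap.

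The 3 members higher at day 10 in both arms were Col26a1, Col11a2 and Col9a2. Col26a1, a small collagen first described in testis and ovary, measured 0.810 and 0.824 FPKM in Sham 2 and Sham 3, 0.881, 0.596 and 1.01 FPKM in PEL_3d and 2.48, 1.36 and 1.45 FPKM in PEL_10d. In the growth hormone arm it measured 0.674, 1.02 and 0.758 FPKM in Sham_GH, 0.982, 1.12 and 1.15 FPKM in PEL_3d_GH and 1.63, 2.25 and 1.83 FPKM in PEL_10d_GH. The sham and day 3 libraries covered one range and the day 10 libraries lay above it. Col26a1 rose by 1.08 on the log2 scale from day 3 to day 10 (SE 0.30, adjusted p = 0.0339, edgeR) and by 0.80 with growth hormone (SE 0.20, adjusted p = 0.0279, edgeR). Col9a2 measured 4.44, 3.77 and 5.28 FPKM in PEL_3d and 8.66, 6.34 and 6.86 FPKM in PEL_10d, and 4.65, 4.91 and 4.81 FPKM in PEL_3d_GH and 5.89, 8.32 and 7.42 FPKM in PEL_10d_GH. Its day 10 libraries lay above its day 3 libraries in both arms, as did those of Col11a2. Col22a1, a collagen of tissue junctions, had the largest rise without growth hormone (1.24, SE 0.37, adjusted p = 0.0437, edgeR), with 0.153, 0.101 and 0.177 FPKM in PEL_3d and 0.503, 0.306 and 0.214 FPKM in PEL_10d. With growth hormone its rise was 1.12 and did not pass the threshold (adjusted p = 0.0929, edgeR), with 0.393, 0.280 and 0.140 FPKM in PEL_3d_GH and 0.272, 0.638 and 0.585 FPKM in PEL_10d_GH, which overlapped. Without growth hormone, the call of Col11a2, Col5a3 and Col6a5 was kept under all 11 alternatives, and the number of members called was 6 without PEL_3d 1 and 7 without PEL_3d 3. With growth hormone the 13 calls became 6, 8 and 23 without PEL_3d_GH 1, 2 and 3 in turn, and 4 without PEL_10d_GH 2. The overlap of the arms was not recounted in these fits.

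**Figure D4:**
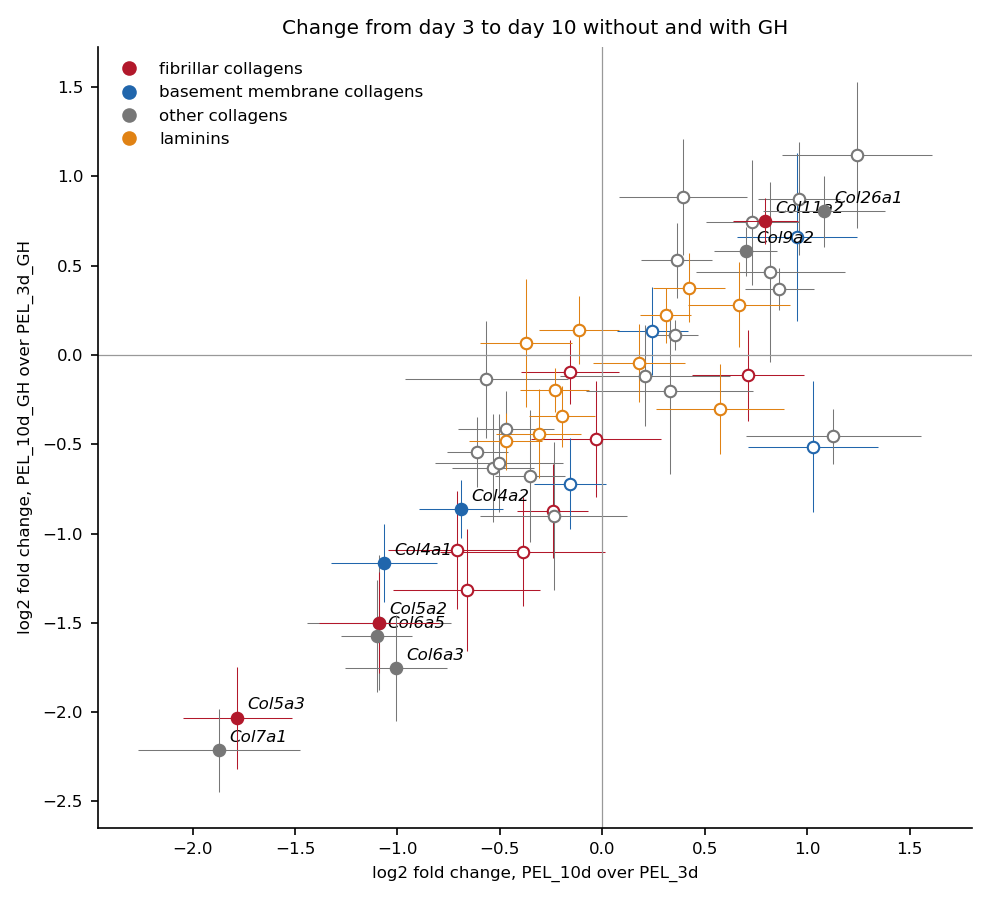
Log2 fold change of day 10 over day 3 for each member without growth hormone (horizontal axis) and with it (vertical axis), from separate libraries; bars are standard errors, colours the 4 classes, and filled named points the members called in both. Col7a1 and Col5a3 lie lowest on both axes and Col26a1, Col11a2 and Col9a2 are the named points above 0.

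Growth hormone itself gave no called member in the main edgeR fits. In Sham_GH against Sham 0 of 51 members were called in edgeR and 0 in DESeq2 (1.09% of all genes in edgeR), with 1 higher and 4 lower at an unadjusted p-value under 0.05. In PEL_3d_GH against PEL_3d 0 of 51 were called in edgeR (0.027% of all genes), with 6 higher and 0 lower at an unadjusted p-value under 0.05, and DESeq2 called 2 higher. The median log2 fold change of the members was 0.28 there, beside 0.01 over all genes, and 42 of 51 were positive. Of the named members, Col1a1 had a log2 fold change of 0.97 (SE 0.33, adjusted p = 0.695, edgeR) and Col3a1 of 0.71 (SE 0.33, adjusted p = 0.759, edgeR). The smallest adjusted p-values of members were those of Col9a3 (0.70, SE 0.15, adjusted p = 0.366, edgeR) and Col23a1 (0.96, SE 0.24, adjusted p = 0.439, edgeR). In PEL_10d_GH against PEL_10d 0 of 52 members were called in edgeR and 0 in DESeq2 (0% of all genes in edgeR), with 2 higher and 1 lower at an unadjusted p-value under 0.05. By overlap alone, 2 members lay wholly above and 5 wholly below in Sham_GH against Sham (17% and 16% of all genes), 4 and 0 in PEL_3d_GH against PEL_3d (6.24% and 5.8%), and 1 and 1 in PEL_10d_GH against PEL_10d (6.15% and 5.29%). The lesion effect with growth hormone minus that without was past the threshold for 0 of 52 members at day 3 (0.0462% of all genes; 3 higher and 0 lower unadjusted; 0 in DESeq2) and for 0 of 52 at day 10 (0% of all genes; 1 higher and 2 lower unadjusted; 0 in DESeq2). The unequal counts of called members in the arms with and without growth hormone are therefore not shown to be a difference between them. The arms also differ in their sham groups, which held 2 libraries without growth hormone and 3 with it. For the comparisons of this paragraph, the shares of all genes at the unadjusted threshold and in DESeq2 are not given here.

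In the hippocampus 0 of 48 members were called in HIP_PEL_10d against HIP_Sham in edgeR (0% of all genes), with 1 higher and 11 lower at an unadjusted p-value under 0.05 (3.63% and 6.58% of all genes), and DESeq2 called 6 lower (1.37% of all genes). Col3a1 measured 7.41, 0.557 and 0.684 FPKM in HIP_Sham and 1.10, 0.440 and 0.669 FPKM in HIP_PEL_10d, and Col1a2 measured 9.88, 1.48 and 2.01 FPKM and 1.96, 1.31 and 0.997 FPKM. The first sham value is the library labelled HIP_Sham 1, which was the highest for both genes and nearer to the hypothalamic sham libraries, and the other libraries of both groups overlapped. Without the library labelled HIP_Sham 1, 10 of 50 members were lower and 0 higher, against 4.07% lower and 2.09% higher of all genes. They were Col4a3, Col4a4, Col6a5, Col8a1, Col8a2, Col9a3, Col17a1, Col18a1, Lama5 and Lamb1. Col8a1 measured 6.57 and 8.39 FPKM in HIP_Sham 2 and HIP_Sham 3 and 0.197, 0.076 and 0.659 FPKM in HIP_PEL_10d (log2 fold change -4.65, SE 0.45, adjusted p = 0.00154, edgeR). Col9a3 measured 15.2 and 19.1 FPKM in the same sham libraries and 3.75, 2.41 and 4.26 FPKM after the lesion (log2 fold change -2.34, SE 0.20, adjusted p = 0.000962, edgeR). Markers of the choroid plexus, the tissue that makes cerebrospinal fluid, moved with these genes, with a summed level of 5229 and 6528 FPKM in HIP_Sham 2 and HIP_Sham 3 and of 257, 109 and 939 FPKM in HIP_PEL_10d. Ttr alone took 4157 and 5224 FPKM and then 116, 28.5 and 767 FPKM. Markers of fibroblasts and leptomeninges also did not overlap, with summed levels of 89.5 and 113 FPKM in the same sham libraries and 30.4, 23.5 and 31.0 FPKM in HIP_PEL_10d. Their part in the result was not tested.

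**Figure D5:**
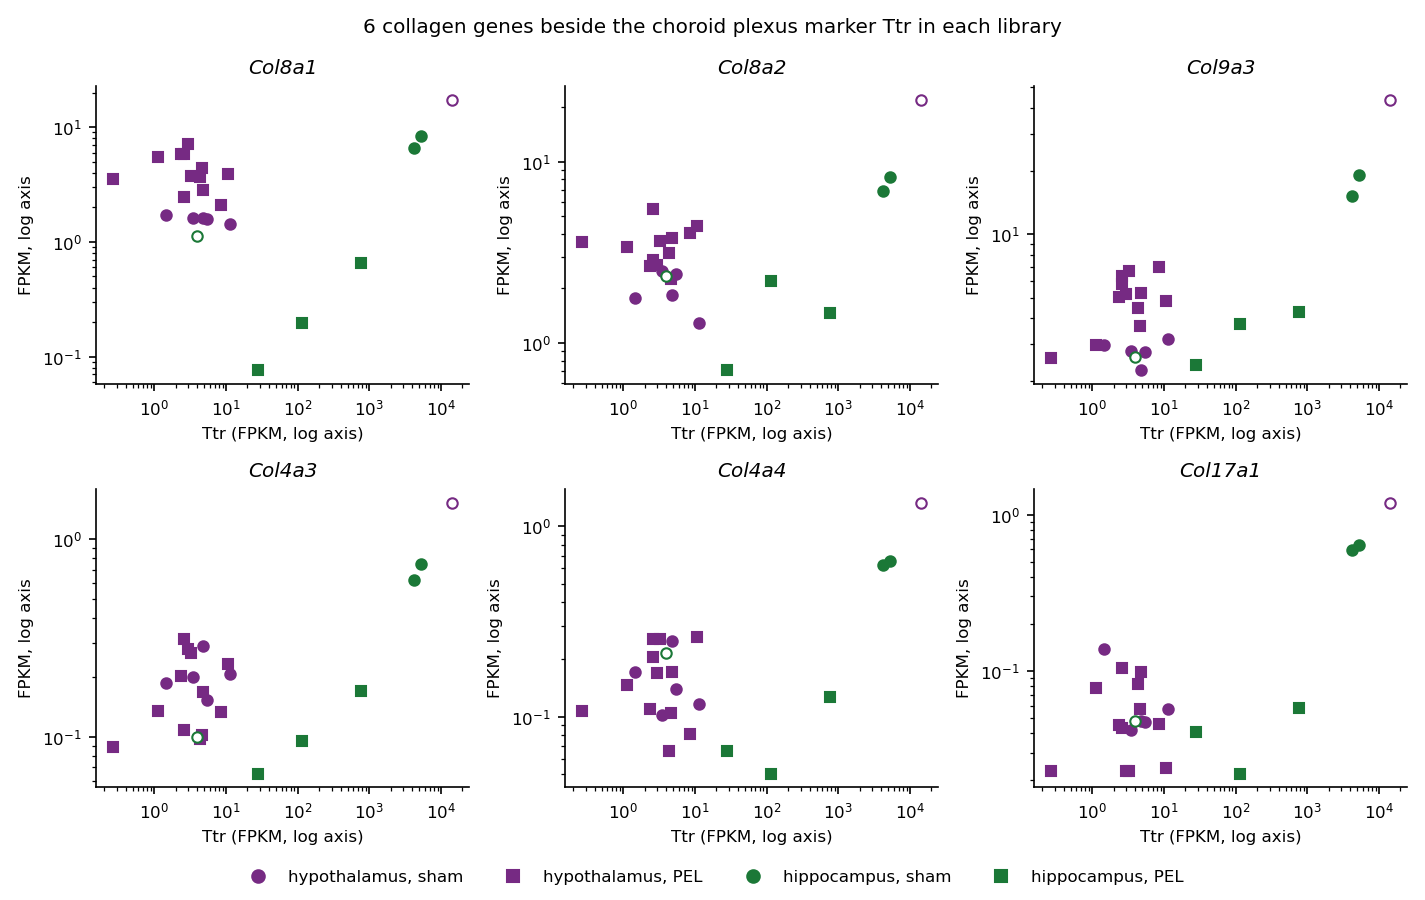
FPKM of Col8a1, Col8a2, Col9a3, Col4a3, Col4a4 and Col17a1 (vertical, log axes) against that of the choroid plexus marker Ttr (horizontal, log axes) in the 24 libraries; circles are sham and squares lesioned libraries, purple hypothalamus and green hippocampus, and open symbols the libraries labelled Sham 1 and HIP_Sham 1. The library labelled Sham 1, at 14320 FPKM of Ttr, is the highest point of the 6 plots.

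The tissues differed at day 10, where 40 of 50 members were higher and 3 lower in PEL_10d than in HIP_PEL_10d, against 30.9% higher and 29.7% lower of all genes. Col3a1, Col1a2 and Col1a1 had the largest log2 differences (5.40, 4.39 and 4.28). Col19a1, Col6a4 and Lamb1 were the members lower in the hypothalamus (-1.88, -0.99 and -0.97). Lamb1 measured 5.14, 4.31 and 4.58 FPKM in PEL_10d and 8.13, 7.26 and 7.82 FPKM in HIP_PEL_10d, which did not overlap. Col19a1 measured 0.178, 0.312 and 0.274 FPKM in PEL_10d and 0.515, 1.05 and 0.818 FPKM in HIP_PEL_10d, again without overlap, while Col6a4 measured 0.137, 0.201 and 0.160 FPKM against 0.225, 0.198 and 0.292 FPKM, with overlap. After the lesion the log2 fold change was more positive in the hypothalamus than in the hippocampus for 4 of 52 members and more negative for 0, against 1.82% and 0.0663% of all genes. They were Col4a1 (difference of log2 fold changes 1.14), Col4a5 (2.19), Col7a1 (2.87) and Col18a1 (3.07), with adjusted p-values in edgeR's interaction test of 0.0286, 0.0251, 0.0437 and 0.0185. In the hippocampus alone the log2 fold changes were -0.07 for Col4a1, -1.15 for Col4a5 and -1.25 for Col18a1, none of them past the threshold, beside 1.07, 1.04 and 1.82 in the hypothalamus, and Col7a1 did not pass the filter in the hippocampus. The negative hippocampal values thus made up part of the differences of Col4a5 and Col18a1. Markers of the choroid plexus and of fibroblasts were lower in HIP_PEL_10d than in HIP_Sham 2 and HIP_Sham 3, as given above, and their part was not tested. Without the library labelled HIP_Sham 1 the count was 20 of 52, against 6.52% of all genes, and it was 0 without Sham 2, Sham 3, PEL_10d 3, HIP_PEL_10d 2 or HIP_PEL_10d 3. It was 1 without PEL_10d 1 or HIP_Sham 3 and with the library labelled Sham 1 put back, and 2 without HIP_Sham 2.

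The genes that make, cut and bind these chains were read from lists written with the members. Beside them, 22.2% of all genes were higher and 18.2% lower at day 3, and 7.97% and 1.43% at day 10. Of 20 genes of collagen biosynthesis, 11 were higher and 2 lower at day 3 and 4 higher and 0 lower at day 10. Plod1, a lysyl hydroxylase, had a log2 fold change of 1.56 at day 3 and 0.52 at day 10, and Ppib, a prolyl isomerase of the endoplasmic reticulum, of 0.91 at day 3 and 0.21 at day 10, where it was not called. Of the genes of collagen processing and crosslinking, 7 of 14 were higher and 3 lower at day 3 and 4 of 12 higher and 0 lower at day 10, with Loxl2, a lysyl oxidase, at 3.52 and 1.55 and the procollagen protease Bmp1 at 1.74 and 0.71. Of 14 basement membrane partners, 6 were higher at day 3 and 4 at day 10, among them the laminin-binding nidogens Nid1 (1.59 and 1.64) and Nid2 (1.89 and 1.63). Of 19 matrix receptors, 14 were higher at day 3 and 9 at day 10, with Cd44 at 2.94 and 1.83. Of 16 other matrix proteins, 14 were higher and 1 lower at day 3 and 13 higher and 0 lower at day 10, with Tgfbi at 3.59 and 1.24 and Spp1 at 5.79 and 2.11. Of 14 genes of fibrosis signalling, 8 were higher at day 3 and 3 at day 10, with Tgfb1 at 2.79 and 1.55 and its receptor Tgfbr2 at 1.87 and 1.31.

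Markers of several cell types were counted beside the members in the hypothalamus, and their part in the results was not tested. The shares over all genes were again 22.2% higher and 18.2% lower at day 3 and 7.97% and 1.43% at day 10. The markers of microglia and macrophages were higher for 12 of 12 at day 3 and 9 of 12 at day 10, with summed levels of 180 to 186 FPKM in Sham 2 and Sham 3, 1420 to 2188 FPKM in PEL_3d and 589 to 1363 FPKM in PEL_10d. The markers of fibroblasts and leptomeninges were higher for 3 and lower for 1 of 11 at day 3, and higher for 6 of 12 at day 10, with summed levels of 192 to 222 FPKM, 190 to 273 FPKM and 290 to 534 FPKM in the same groups. Endothelial markers were higher for 8 of 10 at day 3 and 4 of 10 at day 10 (114 to 117 FPKM, 175 to 202 FPKM and 138 to 161 FPKM), and mural cell markers for 7 of 10 and 1 of 10 (70.8 to 71.4 FPKM, 101 to 128 FPKM and 71.8 to 110 FPKM). Astrocyte markers were higher for 7 and lower for 1 of 8 at day 3 and higher for 4 of 8 at day 10. Choroid plexus markers were higher for 1 and lower for 3 of 8 at day 3 and higher for 1 of 8 at day 10, with Kcne2 and Slc4a5 near 0 in most hypothalamic libraries. Hypothalamic markers were higher for 1 and lower for 6 of 10 at day 3 and lower for 2 of 10 at day 10, hippocampal markers higher for 1 and lower for 4 of 9 and then higher for 1 of 9, and anterior pituitary markers lower for 2 of 5 at day 3 and called for 0 of 3 at day 10. PEL_10d 2, with the lowest fibrillar sum of its group, also had its lowest sums of macrophage (589 FPKM), fibroblast (290 FPKM), endothelial (138 FPKM), mural (71.8 FPKM) and astrocyte markers (954 FPKM). The fibroblast sums of PEL_10d 1, 2 and 3 (534, 290 and 350 FPKM) had the same order as their fibrillar sums, as did the mural sums. The macrophage sums (1207, 589 and 1363 FPKM) did not. In PEL_3d 1, 2 and 3 the macrophage sums (1799, 1420 and 2188 FPKM) had the order of the fibrillar sums, and the fibroblast sums (273, 190 and 253 FPKM) did not. Both had it in PEL_3d_GH and in PEL_10d_GH. These orders were not tested. PEL_10d_GH 3, with the highest fibrillar sum of its group (161 FPKM), held 5479 FPKM of Pomc and 32.4 FPKM of Prl, which are abundant in the pituitary, where the 16 other hypothalamic libraries apart from the one labelled Sham 1 held 10.4 to 80.2 FPKM of Pomc and at most 5.1 FPKM of Prl. Without PEL_10d_GH 3, 32 of 52 members were higher and 2 lower in PEL_10d_GH than in Sham_GH, against 14.4% and 8.88% of all genes.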

How the data were processed

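Per the labels and the study's methods, RNA libraries were made with a SMARTER mRNA kit, reads were aligned with Hisat2 to GRCm38/mm10 and counted per gene with featureCounts by the authors; the annotation release and strand setting are not given in the sources used here. The authors deposited 1 table of 22274 genes with estimated counts, of which 8.22% were not whole and were rounded here, and with FPKM values, which scale by transcript length and library depth. The ratio of FPKM to counts per library total was not fixed for a gene: over the 39 members with at least 50 counts in 12 or more libraries, its highest over its lowest value had a median of 1.10 and a maximum of 2.86 (Col11a1), and was over 1.5 in 10 members. How the deposited FPKM were made is not given in the sources used here. Levels and overlaps of named members are given on deposited FPKM, and tests and the numbers of members whose groups did not overlap used the counts (TMM-scaled CPM for the latter). Symbols were matched by gene ID for 22219 genes and not for 55.

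Each comparison was fitted on its own groups in edgeR 4.0.16 (R 4.3.3) by the quasi-likelihood test, with TMM scaling, filterByExpr at a minimum count of 10, and Benjamini-Hochberg adjustment over all genes tested, at 0.05. The library labelled Sham 1 was left out of these fits. The difference between lesion effects was tested as an interaction. Alternatives were DESeq2 size factors, DESeq2 1.42.0, no filter, a replicate block, 1 fit over all groups, the library labelled Sham 1 included, and each library left out in turn. Members named with values in each library were those with the highest mean FPKM of their class and the largest called changes in each comparison, and others are named as examples of their class, some of them chosen after their values were seen. The members, the gene lists and the markers were chosen with earlier results of these data known. The separate values of 1 member are not reported here. Figures were drawn with matplotlib 3.10.9.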

Additional observations from a re-analysis of the deposited data

Results flagged for a closer look

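The lesion effect at day 10 differed between hypothalamus and hippocampus by edgeR's interaction test for 4 members, with differences of log2 fold changes of 1.14 for Col4a1, 2.19 for Col4a5, 3.07 for Col18a1 and 2.87 for Col7a1. Of all genes tested, 1.82% were called in this direction. The count was 0 without any 1 of Sham 2, Sham 3, PEL_10d 3, HIP_PEL_10d 2 and HIP_PEL_10d 3, and 20 without the library labelled HIP_Sham 1, which went against its label and was kept in this fit. The library labelled Sham 1, which the main tests did not use, held at least 1 FPKM and at least 2 times the highest level of the other 17 hypothalamic libraries in 6 members. It held 43.7 FPKM of Col9a3 where the highest of the 17 held 6.97, 22.1 FPKM of Col8a2 (5.46), 17.4 FPKM of Col8a1 (7.11), 1.53 FPKM of Col4a3 (0.312), 1.32 FPKM of Col4a4 (0.263) and 1.19 FPKM of Col17a1 (0.139). Groups held 3 libraries, and the gap test for a single value standing apart needs at least 4, so it was not run. Over all genes, the chi-square per degree of freedom between the counts of a pair of libraries was 157 and 156 for Sham 1 against Sham 2 and Sham 3, and 4.46 between those. It was 157 and 160 for HIP_Sham 1 against HIP_Sham 2 and HIP_Sham 3, and 4.01 between those.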

How the results depend on the processing

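Over 199 member results past the threshold, 1869 of 2213 values under alternatives kept direction and side of the threshold, 339 kept direction only and 5 reversed, all with the library labelled Sham 1 included: Col8a1 in PEL_3d against Sham (-0.69), and Col6a3 (-0.067), Col8a1 (-1.05), Col8a2 (-1.23) and Col9a3 (-1.63) in PEL_10d against Sham. Called under every alternative were 13 of 30 members in PEL_3d against Sham, 0 of 24 in PEL_10d against Sham, 3 of 14 in PEL_10d against PEL_3d, 26 of 34, 23 of 37 and 3 of 13 in the same comparisons with growth hormone, 37 of 43 between tissues and 0 of 4 for the tissue interaction.

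With 1 fit over all groups the members called were 19 in PEL_3d against Sham, 6 in PEL_10d against Sham, 7 in PEL_10d against PEL_3d, 8 in the hippocampus and 11 for the tissue interaction. With the library labelled Sham 1 included they were 16, 3 and, for the tissue interaction, 1. DESeq2 called 2 in PEL_3d_GH against PEL_3d, 6 in the hippocampus and 16 for the tissue interaction, and without a filter 1 was called in Sham_GH against Sham. With a replicate block 30 were called in PEL_10d against PEL_3d (14 higher and 16 lower, with 3367 of all genes called), 2 in Sham_GH against Sham and 2 for the tissue interaction; no comparison had all correlations between the deviations of same-numbered libraries above 0.1, the nearest being PEL_10d against PEL_3d (0.151, 0.388 and 0.089), so the numbers were not taken as pairs. The cause of these shifts was not tested.

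Leaving out 1 library at a time gave 23 to 36 members in PEL_3d against Sham, 2 to 30 in PEL_10d against Sham, 6 to 16 in PEL_10d against PEL_3d, 28 to 36, 31 to 40 and 4 to 23 in these with growth hormone, 0 to 2 in Sham_GH against Sham, 0 to 1 in PEL_3d_GH against PEL_3d, 0 to 10 in the hippocampus, 38 to 42 between tissues, 0 to 1 for the growth hormone interaction at day 3 and 0 to 20 for the tissue interaction. In PEL_10d_GH against PEL_3d_GH the count was 6, 8 and 23 without PEL_3d_GH 1, 2 and 3 and 4 without PEL_10d_GH 2. The tissue interaction gave 0 without Sham 2, Sham 3, PEL_10d 3, HIP_PEL_10d 2 or HIP_PEL_10d 3, 1 without PEL_10d 1 or HIP_Sham 3, 2 without HIP_Sham 2 and 20 without HIP_Sham 1. Sham_GH against Sham gave 2 without Sham_GH 2, and PEL_3d_GH against PEL_3d gave 1 without PEL_3d_GH 3. Without Sham 2 or Sham 3 the lone Sham library was assumed to vary like the other group. The number of libraries per group limits the precision.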
